A study of Rattus norvegicus with 20 samples.

Results

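miR-133a and miR-133b are sister miRNAs of striated muscle, and both were followed here through every array of the series. Their measurements were the rows of the scanner files carrying the systematic names rno-miR-133a and rno-miR-133b, 2 of the 348 miRNAs with a single name in every file, on all 20 arrays. The ratio of both signals within each array was examined as well. The study asked how miRNA levels in muscle and sensory ganglia respond to chronic compression of the sciatic nerve, to its release and to loss of the nerve.

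RNA of adult male Sprague-Dawley rats was labelled with Cy3 and measured on rat miRNA arrays from Agilent, 10 with RNA of soleus, a slow postural muscle of the calf, and 10 of dorsal root ganglia (DRGs), which hold the cell bodies of sensory neurons. In each tissue, 3 arrays came from denervation for 6 months, in which the sciatic nerve was cut and a piece removed. Another 3 came from entrapment for 6 months, in which a silastic tube that does not constrict was laid around the nerve, and 3 from entrapment for 6 months followed by decompression, the removal of the tube, for 3 months. A sham operation was represented by 1 array per tissue. Array work on 3 sham rats is described in the methods, and whether the 1 array held RNA of 1 of them or of a pool is not given in the sources used here, nor is the age of the rats in weeks or months. Both members were detected on all 20 arrays.

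miRNAs pair through their seed, the bases near the 5′ end, with messenger RNAs and lower their translation and stability. The miR-133 family is made together with miR-1 or miR-206 from shared primary transcripts in skeletal and cardiac muscle, where miR-133 is known for favouring proliferation of muscle precursors and for repressing serum response factor, and miR-1 and miR-206 for favouring differentiation. miR-133a is made in heart and skeletal muscle, while miR-133b and miR-206 are chiefly products of skeletal muscle.

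The mature sequences are shown because the members differ so little that their values must be read as those of near-identical targets. They are RefSeq entries on the rat assembly GRCr8, 5′ to 3′, with the seed (bases 2 to 8) in capitals. The arrays name no arm, and the 3p arm is given here because it is the one that the older names without an arm denote by convention.
rno-miR-133a-3p: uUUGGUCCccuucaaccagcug
rno-miR-133b-3p: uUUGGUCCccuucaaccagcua
rno-miR-1-3p: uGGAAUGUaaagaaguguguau
rno-miR-206-3p: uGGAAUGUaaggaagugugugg
miR-133a-3p and miR-133b-3p share 21 of 22 bases and differ by G22A, counted from the 5′ end of miR-133a-3p. Their seed occurs in these 2 of the 724 mature rat entries of the table. Probe sequences are not in the files used here, so how far each probe also captured the other member was not tested.

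The genes are less alike than their products. miR-133a-3p lies at chr18:2157886-2157907 on the minus strand in Mir133a1, with miR-1-3p 2431 bases away, and miR-133b-3p lies at chr9:30594629-30594650 on the plus strand in Mir133b, 3860 bases from miR-206-3p. The entry of Mir133a2, another miR-133a gene, was not in the files used here. The hairpins are printed with the mature 3p arm in capitals to show where the members can be told apart.
Mir133a1 hairpin: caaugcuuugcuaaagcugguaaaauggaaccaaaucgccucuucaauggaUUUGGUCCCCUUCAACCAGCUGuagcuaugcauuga
Mir133b hairpin: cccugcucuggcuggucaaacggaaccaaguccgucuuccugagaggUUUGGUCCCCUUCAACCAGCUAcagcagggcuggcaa
In a global alignment they were identical at 70.7% of 92 columns, while the mature arms differ at 1 base.

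Values are total gene signals, the intensity that the scanner software summed over the probes of a miRNA after background subtraction. Some arrays were brighter than others. Their 75th percentile spanned 6.20-fold over the soleus arrays, from 409 on sham to 2539, and 1.62-fold over the DRG arrays. Signals were therefore also scaled to that percentile within each tissue. Marker miRNAs were checked against the labelled tissues. In soleus, miR-1 and miR-206 were detected on all 10 arrays and miR-499 on 9, all but the sham array. Unscaled miR-1 and miR-206 were also lowest on sham, at 4895 and 1423, against soleus medians of 43814 and 4322. After scaling, miR-1 was still lowest on sham (13071) and miR-206 was not (3799). These scanner values of miR-1 differ from the processed values that the authors also deposited on 6 of 10 soleus arrays, those of miR-206 on 0. miR-208, a heart miRNA, was detected on no array of either tissue. Of the neuron list, all 5 members were detected on all 10 DRG arrays, and in soleus 3 of the 5 (miR-124, miR-9 and miR-183) were detected on none. These are whole tissues, so a lower share of muscle fibres and less RNA per fibre cannot be told apart.

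**Figure D1:**
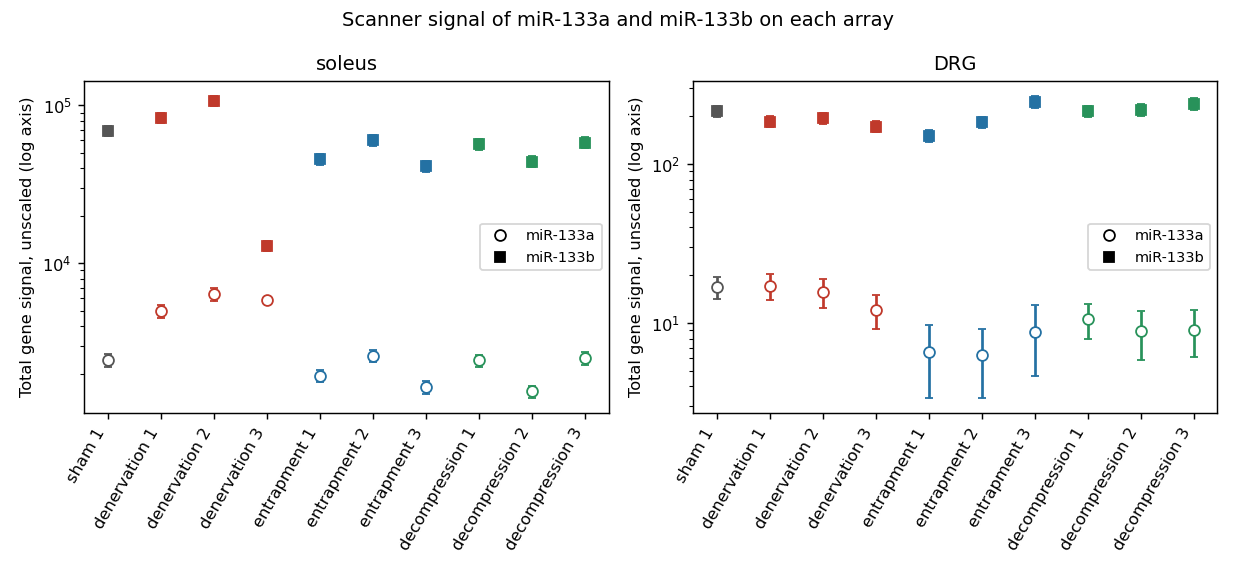
Unscaled total gene signal (log axis) of miR-133a (open circles) and miR-133b (filled squares) on each of the 10 soleus and 10 DRG arrays, coloured by group, with the scanner's own error as bars. In soleus the scanner values of miR-133a are highest on the 3 denervation arrays, but the authors' processed value of denervation 3 corresponds to 2092 and not 5883. miR-133b is lowest on denervation 3. In the DRGs miR-133a is lower on all 6 entrapment and decompression arrays than on sham and denervation.

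miR-133b was lower after every injury than on the sham array of soleus once the arrays were scaled. Its unscaled signal on sham was 68973. It was 83144, 106270 and 12881 on the 3 denervation arrays, 45505, 60292 and 41355 on the entrapment arrays, and 56540, 43952 and 57952 on the decompression arrays. Before scaling, sham thus lay within the range of the denervation arrays and above all 6 entrapment and decompression arrays, and denervation 3 lay far below every other array. After scaling, sham stood at 184170 and the 9 injury arrays lay between 28550 and 63731, with no overlap, as did 34.7% of the tested miRNAs in the same direction. In descending order decompression had 54897 ± 4128 (SD, n = 3), denervation 47858 ± 14935 and entrapment 43826 ± 16505, and these 3 neighbours differed by less than their spread.

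The log2 difference of miR-133b from sham was -1.99 after denervation (standard error 0.48, adjusted p = 0.0165, limma with Benjamini-Hochberg adjustment over 173 miRNAs). In the same fit the entrapment group differed by -2.14 (adjusted p = 0.0118) and the decompression group by -1.75 (adjusted p = 0.0249), at medians of -0.07, -0.37 and -0.25 over all miRNAs tested. Calls were common in these comparisons, since 26.6%, 29.5% and 31.8% of the tested miRNAs passed, and 15%, 19.7% and 22% as lower. By the 2-fold criterion on each of the 3 arrays, miR-133b was lower in all 3 groups, 2.89-fold to 6.45-fold over the 9 arrays, as were 18.5%, 27.2% and 27.2% of the miRNAs. The 3 comparisons share the 1 sham array, which has no spread of its own and on which miR-133b alone made up 58.1% of the summed signal of all miRNAs, against 7.82% to 29.2% on the injury arrays.

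These differences moved with the scaling. The sham array had the lowest 75th percentile, and without scaling the miR-133b differences were -0.51, -0.51 and -0.40 (adjusted p from 0.773 to 0.910, limma). With the summed signal as the scale they were -1.75, -1.27 and -1.09, with no call either, and with quantile normalization those of entrapment and decompression were 0, because miR-133b held the top rank on these arrays and took the same value. With the 75th percentile over all miRNAs, the scale used in the DRGs, the calls of entrapment (-1.34, adjusted p = 0.0731, limma) and decompression (-0.96, adjusted p = 0.174) were lost. That of denervation was kept (-1.70, adjusted p = 0.0340). The call of decompression was also lost without decompression 1 (-1.79, adjusted p = 0.0506).

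miR-133a differed in pattern from its sister in soleus. Its unscaled signal was 2448 on sham. It was 4966, 6370 and 5883 after denervation, 1932, 2591 and 1642 after entrapment, and 2425, 1544 and 2509 after decompression. In these scanner values the 3 denervation arrays lay above all 7 others, as they did for 5.78% of the tested miRNAs. With 2092 for denervation 3 that array did not. Sham lay within the range of the entrapment and decompression arrays. After scaling, sham had 6537, entrapment 1212 to 2436 and decompression 1762 to 2480, both wholly below sham. The denervation arrays were far apart at 3806, 2743 and 15566, so that sham fell among them.

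Scaled miR-133a was ordered as denervation (7372 ± 7116, SD, n = 3), sham (6537), decompression (2232 ± 407) and entrapment (1812 ± 612). Denervation and sham, like decompression and entrapment, differed by less than their spread. None of the differences from sham passed the threshold, with log2 values of -0.26 after denervation (adjusted p = 0.842, limma), -1.91 for the entrapment group (adjusted p = 0.114), and -1.57 for the decompression group (adjusted p = 0.196). By the 2-fold criterion miR-133a was lower on all 3 entrapment arrays, 2.68-fold to 5.39-fold, and on all 3 decompression arrays, 2.64-fold to 3.71-fold. The same held for 27.2% of the tested miRNAs in each of these groups. After denervation it was lower by 1.72-fold and 2.38-fold on arrays 1 and 2 and higher by 2.38-fold on array 3. Without scaling the difference after denervation turned to 1.22 (adjusted p = 0.485).

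The value of miR-133a on denervation 3 was not the same in both deposited tables. In the authors' processed table, which equals the scanner signal up to a constant per array for the other 39 of the 40 member values (within 1%, with the 6 DRG columns of entrapment and decompression set against the scanner files they match, those of the other group), it corresponded to 2092 and not 5883, a 2.81-fold gap, and 2092 lies within the range of the entrapment and decompression arrays. The scanner error listed for it was 4.23% of the signal, the lowest of the 11 signals over 1000 on that array, where the next was 7.15%, and the errors of miR-133a on the other soleus arrays were 8.87% to 9.39%. The cause was not tested. With the processed values of both members in place, entrapment and decompression passed against sham (adjusted p = 0.0215 and 0.0420, limma, log2 differences unchanged at -1.91 and -1.57). They also passed without denervation 3 (adjusted p = 0.0131 and 0.0235), and the difference after denervation was then -1.02 (adjusted p = 0.123).

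**Figure D2:**
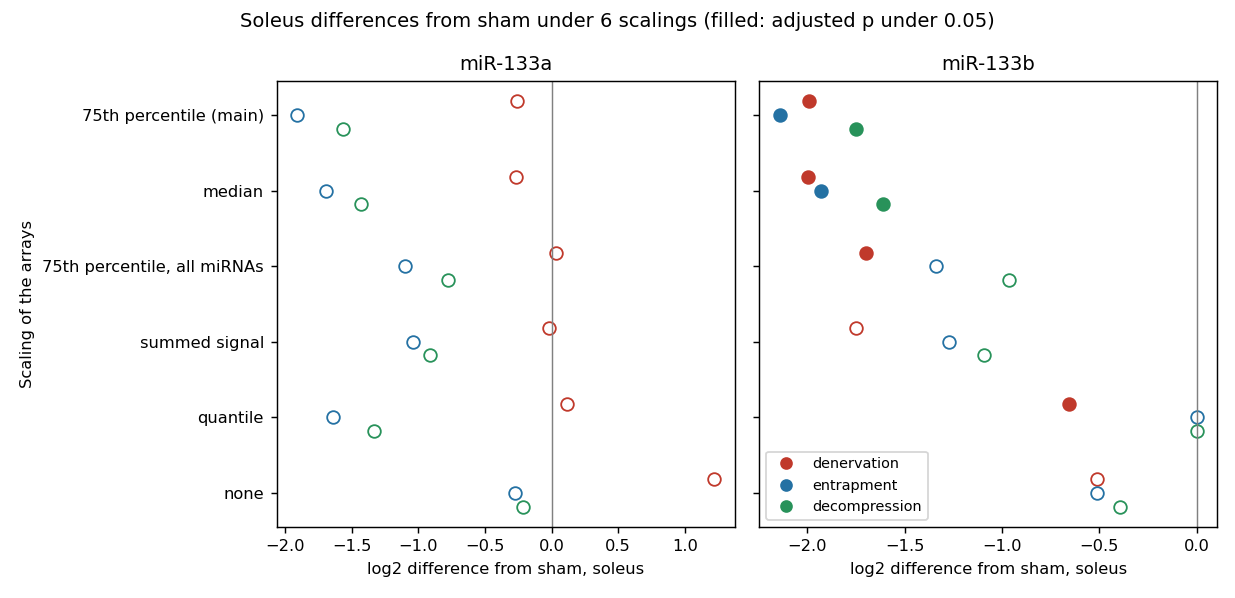
log2 difference from the sham array in soleus (x axis) for miR-133a and miR-133b under 6 ways of scaling the arrays (y axis), with 1 point per injury group and filled points where the adjusted p of limma was under 0.05. miR-133b runs from -2.14 to 0 with the scaling, and the miR-133a point of denervation lies between -0.27 and 1.22.

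Between the injury groups of soleus, neither member passed the threshold. miR-133a was lower after entrapment than after denervation by a log2 difference of -1.65 (95% interval -2.98 to -0.31, adjusted p = 0.127, limma) and lower after decompression by -1.31 (-2.64 to 0.03, adjusted p = 0.184). Against denervation, 11.6% of the miRNAs were called for entrapment and 13.9% for decompression. Without denervation 3 these differences shrank to -0.89 and -0.55. miR-133b differed by -0.15 (-0.92 to 0.62, adjusted p = 0.861) for entrapment and 0.24 (-0.53 to 1.02, adjusted p = 0.618) for decompression. Between decompression and entrapment the intervals were -0.99 to 1.68 for miR-133a and -0.38 to 1.17 for miR-133b, and 0 of 173 miRNAs were called, with adjusted p of 1 for both members and raw p of 0.578 and 0.282 in the same fit.

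In the DRGs miR-133a gave a faint signal. After scaling, miR-133a was lower and miR-133b higher after entrapment than after denervation. miR-133a had 16.9 on sham and 17.2, 15.7 and 12.2 after denervation, against 6.55, 6.31 and 8.85 after entrapment and 10.6, 8.87 and 9.11 after decompression. All 6 entrapment and decompression arrays lay below sham and denervation, a split that 53.4% of the tested miRNAs showed in unscaled signal. The scanner's error was 16.3% to 48.1% of these signals, with the highest shares after entrapment. Scaled, the order was sham (14.6), denervation (12.2 ± 1.98, SD, n = 3), decompression (10.5 ± 1.53) and entrapment (7.95 ± 0.710), in which denervation and decompression overlapped.

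miR-133a was lower after entrapment than on sham (log2 difference -0.88, standard error 0.21, adjusted p = 0.0204, limma over 219 miRNAs) and than after denervation (-0.61, adjusted p = 0.0144). Of all miRNAs tested, 17.4% and 32.9% were called as lower in these comparisons, and 19.6% and 41.1% in either direction. The call against denervation was lost without DRG denervation 1 (-0.58, adjusted p = 0.0509). The authors' processed table names entrapment and decompression the other way round in the DRGs, and by its names the entrapment differences were -0.48 from sham (adjusted p = 0.144) and -0.22 from denervation (adjusted p = 0.285), while those of decompression were called (-0.88 and -0.61). Quantile normalization also ended both calls (-0.11, adjusted p = 0.796, and 0.08, adjusted p = 0.733). The differences of -0.27 for denervation from sham (adjusted p = 0.547), -0.48 for decompression from sham (adjusted p = 0.139), -0.22 for decompression from denervation (adjusted p = 0.283) and 0.40 for decompression from entrapment (adjusted p = 0.920) did not pass. The share of miRNAs called, in either direction, was 0.457%, 18.3%, 36.5% and 0% in turn.

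The background of the arrays moved with these groups. The median signal of the 82 miRNAs detected on none of the 20 arrays was -1.44 to -2.24 on the sham and denervation arrays of the DRGs and -4.00 to -6.35 on entrapment and decompression. Among 45 control features of the array, 24 (53.3%) separated the same sets of arrays in the DRGs, as did 12 (26.7%) in soleus. When that median was taken off every signal, a setting chosen after the values were seen, miR-133a was 18.3 on sham, 14.4 to 18.7 after denervation, 11.8 to 14.6 after entrapment and 14.0 to 14.6 after decompression. The differences of entrapment were then -0.23 from sham (adjusted p = 0.295, limma) and -0.0015 from denervation (adjusted p = 1), so both calls were lost. A constant of a few signal units leaves miR-133b and the soleus signals almost unmoved.

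**Figure D3:**
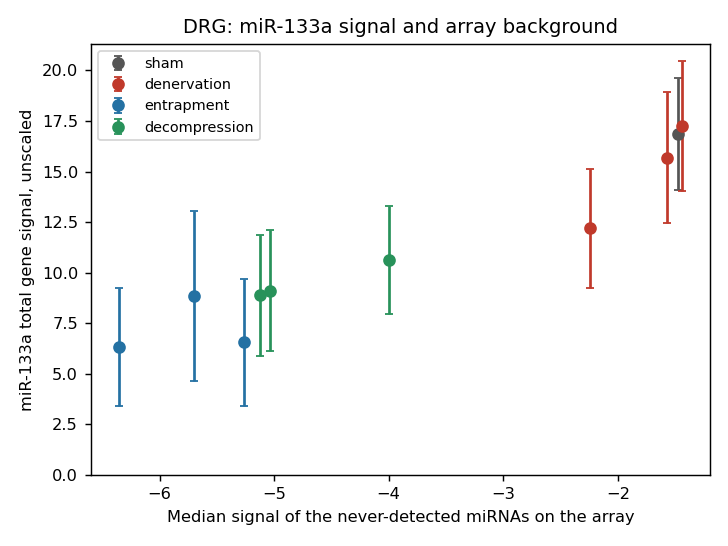
Unscaled miR-133a signal in the DRGs (y axis, with the scanner's error as bars) against the median signal of the 82 never-detected miRNAs on the same array (x axis), 1 point per array, coloured by group. The 4 sham and denervation arrays lie at -1.44 to -2.24 with 12.2 to 17.2 for miR-133a, and the 6 entrapment and decompression arrays at -4.00 to -6.35 with 6.31 to 10.6.

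miR-133b was higher after entrapment and decompression than after denervation in the DRGs. Its unscaled signal was 215 on sham, 185, 194 and 172 after denervation, 151, 184 and 247 after entrapment, and 215, 221 and 241 after decompression. Before scaling, the decompression arrays lay above the denervation arrays, and those of entrapment spread across both. After scaling, the order was decompression (248 ± 25.7, SD, n = 3), entrapment (212 ± 30.8), sham (186) and denervation (151 ± 19.0), and the denervation arrays did not overlap with those of entrapment or decompression. As many as 13.2% and 16.9% of miRNAs were higher without overlap in these comparisons. Decompression and entrapment overlapped, and sham lay within the entrapment arrays.

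Against denervation, the log2 difference of miR-133b was 0.49 after entrapment (standard error 0.14, adjusted p = 0.0244, limma), where 8.22% of miRNAs were called as higher. It was 0.72 after decompression (adjusted p = 0.00409), where 8.68% were. With the background offset taken off they were 0.44 (adjusted p = 0.0355) and 0.68 (adjusted p = 0.00564). Without scaling they were 0.05 and 0.29, and neither passed (adjusted p = 0.813 and 0.169). The entrapment difference also lost its call without denervation 1 or 3 or entrapment 2 or 3 (adjusted p = 0.0565 to 0.0841). Against sham, miR-133b differed by -0.31 after denervation (adjusted p = 0.459), 0.18 in the entrapment group (adjusted p = 0.536) and 0.41 in the decompression group (adjusted p = 0.165). By the names of the authors' processed table, the miR-133b values of entrapment and decompression in the DRGs trade places. From sham they were then 0.41 and 0.18 (adjusted p = 0.167 and 0.537, limma).

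Muscle miRNAs other than the pair were also present at low signal in the DRGs. miR-1 ran from 22.3 to 75.6 and miR-499 from 10.9 to 31.8 on all 10 arrays, and miR-206 from 3.99 to 48.1, detected on 9 of 10. The summed scaled signal of the 4-member list was 123 on sham, 95.6 to 101 after denervation, 58.7 to 90.7 after entrapment and 58.9 to 111 after decompression. The sum thus had its highest value on sham, as miR-133a did, while miR-133b had not. Of its detected members only miR-206 had its own peak on sham. miR-1 was higher on decompression 3 (79.4 against 65.5 on sham, scaled), and miR-499 had 13.9 on sham and 20.1 to 24.5 after denervation. No contrast of miR-1, miR-206 or miR-499 passed in the DRGs, the lowest adjusted p being 0.129 (miR-206, entrapment minus sham, limma). The part of muscle RNA in the DRG values of the pair was not tested.

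The ratio of the miR-133b signal to the miR-133a signal within an array needs no scaling. It compares arrays only, because probes differ in brightness and a ratio of signals is no ratio of molecules. In soleus it was 28.2 on sham, 23.5, 23.3 and 25.2 after entrapment and 23.3, 28.5 and 23.1 after decompression, against 16.7, 16.7 and 2.19 after denervation. All 3 denervation arrays lay below all 7 others. Arrays 1 and 2 of that group were nearly equal, and array 3, whose miR-133a value differs between the deposited tables, was 6.16 with the processed value.

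On the log2 scale the soleus ratio was 1.50 higher after entrapment than after denervation and 1.55 higher after decompression (exact permutation p = 0.1 for each, two-sided, the smallest p that 3 against 3 arrays allow). Without denervation 3 these differences were 0.52 and 0.57, where 2 against 3 arrays cannot go below 0.1 either. The scanner's error of a soleus log2 ratio was 0.13 to 0.18. Decompression and entrapment differed by 0.05 and overlapped (exact permutation p = 0.9). Against the sham array, for which there is no test, the ratio was lower by -1.73 after denervation, -0.23 after entrapment and -0.18 after decompression.

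In the DRGs the ratio was 12.7 on sham and 10.7, 12.4 and 14.1 after denervation. It was 23.1, 29.1 and 27.9 after entrapment and 20.2, 24.9 and 26.4 after decompression, without overlap with the other 4 arrays. In both tissues every denervation array thus lay below every entrapment and decompression array, while sham lay beside entrapment and decompression in soleus and beside denervation in the DRGs. Against denervation the log2 ratio was higher by 1.11 after entrapment and by 0.94 after decompression (exact permutation p = 0.1 for each), with a scanner error of 0.26 to 0.70 per array. With the background offset taken off, these were 0.44 and 0.54 (exact permutation p = 0.1 for each). Decompression and entrapment overlapped, with a difference of -0.17 (exact permutation p = 0.4). By the names of the authors' processed table, the DRG ratios of entrapment and decompression trade places.

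**Figure D4:**
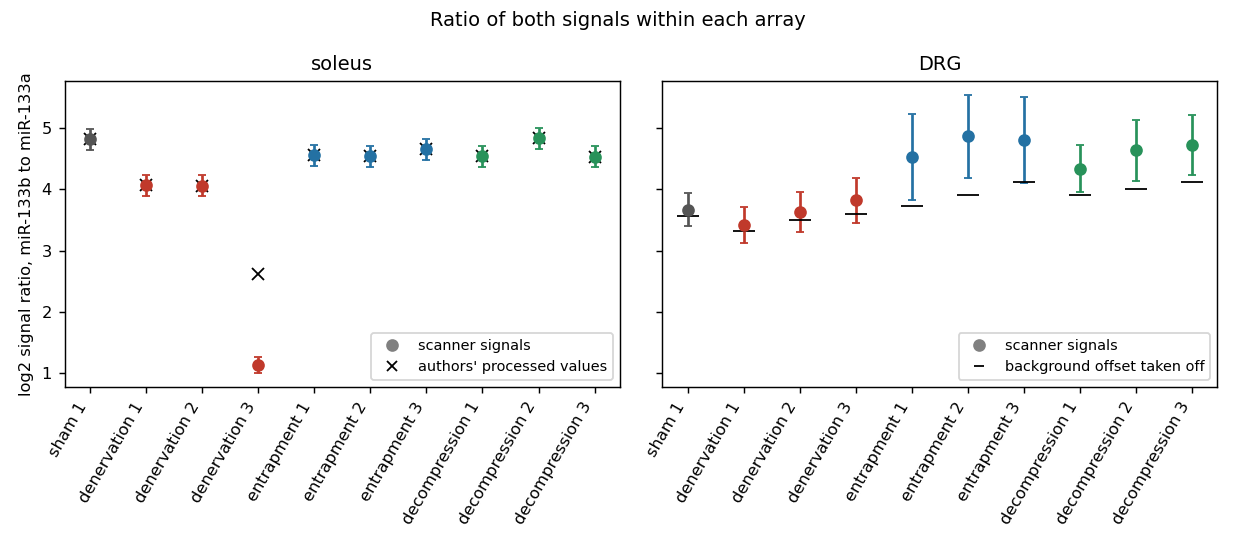
log2 ratio of the miR-133b to the miR-133a signal (y axis) on each soleus and DRG array, coloured by group, with bars for the error that the scanner's errors give. Crosses mark the ratio from the authors' processed values in soleus, which parts from the scanner value on denervation 3, and dashes mark the DRG ratio with the background offset taken off, which brings entrapment and decompression closer to sham and denervation.

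Between the tissues, both members were far higher in soleus. With all 20 arrays on 1 scale, miR-133a ran from 979 to 12903 in soleus and from 8.25 to 16.3 in the DRGs, and miR-133b from 23062 to 156062 and from 147 to 326. The mean log2 differences were 7.80 for miR-133a (standard error 0.29, adjusted p = 1.18e-12, limma) and 7.93 for miR-133b (standard error 0.16, adjusted p = 8.06e-16), or 223-fold and 244-fold. They ranked 3 and 2 among 230 miRNAs, of which 19.1% were called as higher in soleus and 83% in either direction. The median difference of all tested miRNAs was -1.06, so on this scale most were lower in soleus. The mean log2 ratio of the pair did not differ detectably between the tissues (difference -0.07, permutation p = 0.917, 10 against 10 arrays). This test took arrays of unlike groups as exchangeable, and differences of single groups can cancel in the mean. On sham the ratio was 28.2 in soleus and 12.7 in the DRGs, and after denervation 2.19 to 16.7 and 10.7 to 14.1.

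Whether an injury acted alike in both tissues was tested as the difference between soleus and DRG of each difference from sham. For miR-133b it was -1.67 for denervation (adjusted p = 0.0353, limma), -2.51 for entrapment (adjusted p = 0.00344) and -2.32 for decompression (adjusted p = 0.00466), so the level relative to sham was lower in soleus than in the DRGs. Of all miRNAs, 23.9%, 27.8% and 27.8% were called in these tests. None of the 3 passed without scaling, with quantile normalization or with the summed signal as the scale, and that of denervation was lost without soleus denervation 2 (adjusted p = 0.0546) or DRG denervation 2 (adjusted p = 0.0660). For miR-133a the values were 0.01 (adjusted p = 0.996), -1.22 (adjusted p = 0.365) and -1.24 (adjusted p = 0.355). Each test rests on both sham arrays and treats soleus and DRG arrays, which may share rats, as independent.

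Each member was set beside its transcript partner over the 10 soleus arrays. These correlations of log2 scaled signals share the arrays and their scaling and describe these arrays alone. miR-133a and miR-133b correlated at r = 0.29, and at 0.92 without denervation 3. miR-133a and miR-1, its partner, correlated at 0.60, and at -0.09 without denervation 3. miR-133b and its partner miR-206 correlated at -0.37. In the same fit as above miR-1 rose after denervation (3.00, adjusted p = 0.0355, limma), but its processed and scanner values differ on 6 of 10 soleus arrays, as do those of miR-499 on 7 of 9 compared. Those of miR-206 differ on 0 of 10. No other contrast of miR-1, miR-206 or miR-499 passed in soleus, the lowest adjusted p being 0.117 (miR-499, denervation minus sham).

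Of 171 other miRNAs, the 3 closest to miR-133a over the soleus arrays were miR-487b (r = 0.90), miR-466b (0.89) and miR-30c-1* (0.87), whose values were 0.74, 0.70 and 0.71 without denervation 3. miR-466b, for example, had a scaled signal of 131 on sham and 308 ± 293 (SD, n = 3) after denervation, against 44.7 ± 5.37 after entrapment and 44.5 ± 16.1 after decompression. The 3 closest to miR-133b were miR-345-5p (0.92), miR-378* (0.91) and miR-22 (0.89), and without denervation 3 their values were 0.92, 0.91 and 0.89. miR-22 had 24908 on sham and 12292 ± 4245 after denervation, 11514 ± 3018 after entrapment and 11939 ± 870 after decompression, highest on the sham array like miR-133b.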

How the data were processed

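The authors deposited 1 scanner file per array, whose linear intensities (the total gene signal), errors and detection calls came from Agilent Feature Extraction 9.5.3 per the labels, with no normalization between arrays. A deposited table also holds a processed signal for each miRNA on each array, equal to the intensity divided by a constant of the array for most miRNAs, but not for miR-1 on 6 of 10 soleus arrays or miR-499 on 7 of 9 compared. Its 6 DRG columns named for entrapment and decompression match scanner files of the other group. Its settings are not given in the sources used here, and the scanner files and their labels were used. For the labelling, amplification with Cy3-CTP stands in the labels and ligation of pCp-Cy3 in the study's methods. Saturation flags, slides and scans are not in the files used here, so batches were not tested.

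Signals were scaled to the 75th percentile of the 108 miRNAs that all 10 soleus arrays detected and of all 348 in the DRGs, and multiplied by the median of those percentiles. For comparisons between tissues the 102 miRNAs that all 20 arrays detected gave the percentile. Signals under a floor (2.86 in soleus, 2.28 in the DRGs, the median of the lowest scaled signal detected per array) were raised to that floor before log2 was taken. The tests covered miRNAs detected on 3 or more of the 10 arrays of a tissue (173 in soleus, 219 in the DRGs) and used limma 3.58.1 in R 4.3.3, with the group as the only term and 6 residual degrees of freedom per tissue, two-sided, with Benjamini-Hochberg adjustment at 0.05. The spread of the other groups was taken to hold for the sham array too. Ratios were compared by exact permutation, and between tissues with 100000 resamples. Between 134 and 194 miRNAs were detected per soleus array and 183 to 233 per DRG array, and the number of arrays, sham above all, limits the precision. The 2 of 350 miRNAs with differing names were left out. The scripts were tested on simulated data.

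The miRNAs named are the pair, the muscle list (miR-1, miR-206, miR-208, miR-499) and, for each member, the 3 with the highest Pearson correlation over the soleus arrays. Lists for neurons, myelinating glia, red blood cells, leukocytes and connective tissue were counted as well. Members and lists were chosen with earlier results of these data known. Alternatives were other scalings or none, a filter of detection on all 10 arrays or none, a pseudocount of 1, an intensity trend, processed values, only both groups compared, a replicate block, leaving out each injury array and, chosen after seeing the data, taking off the background offset. Plots were made in Python 3.11.15 with matplotlib 3.10.9. The spinal segments and the PCR were not analysed here.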

Additional observations from a re-analysis of the deposited data

Results flagged for a closer look

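Effects that differed between the tissues by a test of the difference were those of miR-133b against sham, which were lower in soleus than in the DRGs by log2 values of -1.67 for denervation, -2.51 for entrapment and -2.32 for decompression. All 3 use the same 2 sham arrays. The log2 ratio of miR-133b to miR-133a after entrapment was below sham on every soleus array and above sham on every DRG array, a difference between the tissues of -1.29, which was not tested. With the background offset taken off this difference was -0.59, and with quantile normalization it turned to 1.24.

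The other lists of marker miRNAs gave these summed scaled signals in the DRGs. Neuron miRNAs ran from 3136 to 3829 over all 10 arrays, but within the list miR-9, chosen after its values were seen, had 390 to 496 on sham and denervation and 154 to 188 on entrapment and decompression. Myelinating glia had 7979 on sham and 9813 to 12452 on the injury arrays. Red blood cell miRNAs had 3001 on sham, 686 to 1548 after denervation, 873 to 2871 after entrapment and 1411 to 4244 after decompression. Leukocyte miRNAs had 899 on sham, 680 to 1109 after denervation, 483 to 648 after entrapment and 729 to 963 after decompression. Connective tissue miRNAs ran from 253 to 440. In soleus the muscle list had 16877 on sham, 52831 to 311244 after denervation, 29621 to 57176 after entrapment and 46320 to 52817 after decompression. Most of this sum was miR-1, whose processed and scanner values differ on 6 of 10 soleus arrays. miR-206, whose values differ on 0 of 10, had 3799 on sham and 2359 to 9910 after denervation. It had 3922 to 8786 after entrapment and 2587 to 23138 after decompression.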

How the results depend on the processing

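Of 859 recomputed values for 45 results, 766 kept their direction and their side of the threshold. Many of these alternatives cannot move a difference. Another filter, an intensity trend or leaving out an array of a group outside the comparison changes only its adjusted p. The count is therefore no measure of robustness. The soleus minus DRG differences of both members kept direction and call in every alternative, with 6.99 to 8.74 for miR-133a and 7.12 to 8.06 for miR-133b. Values below are log2 differences (adjusted p from limma), and, except where an alternative changes the samples, the signals or the number of miRNAs tested, the cause was not tested.

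Without scaling, soleus miR-133b against sham was -0.51 for denervation, -0.51 for entrapment and -0.40 for decompression, its interactions with tissue were -0.28, -0.33 and -0.46, and DRG miR-133b against denervation was 0.049 for entrapment and 0.29 for decompression, none of them called. miR-133a turned to 1.22 in soleus denervation and to interactions of 0.96 and 0.61 for entrapment and decompression, DRG miR-133b turned to -0.18 for entrapment minus sham, and DRG miR-133a decompression became called against sham (-0.83) and denervation (-0.65). With the summed signal, soleus miR-133b against sham was -1.75, -1.27 and -1.09 and its interactions -1.26, -1.27 and -1.32, none called. Values that turned were soleus miR-133b entrapment minus denervation (0.48), DRG miR-133b entrapment minus sham (-0.00040) and the miR-133a entrapment interaction (0.021).

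With quantile normalization, soleus miR-133b was 0 from sham for entrapment and decompression and 0.66 above denervation for each (both adjusted p = 0.00761, turned for entrapment, newly called for decompression), and its interactions were -0.31, -0.27 and -0.36, uncalled. miR-133a was 0.12 in soleus denervation, -0.11 and 0.23 in DRG entrapment and decompression against sham and 0.082 and 0.42 against denervation. The log2 ratio was 1.65 and 1.33 from sham in soleus, -0.31 for soleus decompression minus entrapment, 0.41 and 0.17 from sham in the DRGs and 0.14 for soleus minus DRG. With the other set for the percentile, soleus miR-133b against sham was -1.34 (entrapment) and -0.96 (decompression), uncalled, entrapment minus denervation 0.36, and miR-133a denervation minus sham 0.031. With median scaling miR-133b entrapment minus denervation in soleus was 0.066.

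The processed values swap entrapment and decompression in the DRGs. There miR-133a was -0.48 (entrapment) and -0.88 (decompression) from sham and -0.22 and -0.61 from denervation, the decompression values being called, and decompression minus entrapment was -0.40 for miR-133a, -0.23 for miR-133b and 0.17 for the ratio. In soleus miR-133a became called for entrapment (-1.91, adjusted p = 0.0214) and decompression (-1.57, adjusted p = 0.0403), as with the members' processed values alone (-1.91 and -1.57). Its interactions were -0.49 for denervation and -1.61 for entrapment (called), and the ratio differed by 0.078 between tissues.

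With the background offset taken off, DRG miR-133a was -0.23 for entrapment minus sham, -0.0015 for entrapment and 0.14 for decompression minus denervation, its denervation interaction was -0.033, and the log2 ratio differed by 0.36 and 0.45 from sham and 0.093 between decompression and entrapment in the DRGs and by 0.39 between tissues. With an intensity trend soleus miR-133b decompression minus sham was -1.75 (adjusted p = 0.0642), with no filter DRG miR-133b entrapment minus denervation was 0.49 (adjusted p = 0.0507), and with a pseudocount the miR-133a denervation interaction was -0.0096 and the ratio between tissues 0.056.

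The labels do not say whether the replicate numbers pair the samples, and low correlations cannot exclude it. Deviations of same-numbered arrays correlated at -0.47 to 0.20 in soleus, -0.12 to 0.48 in the DRGs and -0.20 to 0.23 between tissues. With the replicate block, soleus miR-133b was -1.99, -2.14 and -1.75 from sham (adjusted p = 0.0646, 0.0550 and 0.0902) and DRG miR-133a entrapment minus sham -0.79 (adjusted p = 0.0741), and no other call changed.

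Leaving out 1 injury array at a time changed a call or direction for these results. In soleus, miR-133a against sham ranged from -1.02 to 0.24 (denervation), -2.15 to -1.65 (entrapment) and -1.65 to -1.41 (decompression), miR-133b decompression minus sham from -1.79 to -1.69, miR-133b entrapment minus denervation from -0.43 to 0.12, and the ratio for decompression minus entrapment from -0.047 to 0.10. In the DRGs, entrapment minus denervation ranged from -0.75 to -0.52 for miR-133a and from 0.39 to 0.60 for miR-133b. The denervation interaction ranged from -0.74 to 0.51 for miR-133a and from -1.91 to -1.45 for miR-133b, and the ratio between tissues from -0.16 to 0.27. The DRG ratio for denervation minus sham, a value with no test, ranged from -0.14 to 0.055. Signal over background limits miR-133a in the DRGs, where the scanner error reached 48.1%.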
